A study of Saccharomyces cerevisiae with 8 samples.

Results

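URA5, ADE2 and AAH1 are yeast genes that build or recycle nucleotides, and their transcripts were compared between a strain lacking SUB1 and its wild type. The 3 genes were 3 of the 3127 that had a spot with exactly 1 gene symbol in the platform annotation, each with 1 spot, and they were chosen by role and on earlier results from the same arrays. URA5 stood out there for its high ratio after 4NQO. The values below are therefore descriptions, and no p-value is given for a member.

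The study hybridised RNA of sub1Δ cells against RNA of wild-type Saccharomyces cerevisiae, strain YPH500, on spotted arrays of amplified open reading frames. SUB1 encodes a transcription coactivator related to human PC4. One set of cells was sampled 1 h after 4-nitroquinoline 1-oxide (4NQO, given in the labels as 1 µg/µl), a chemical that leaves bulky adducts and oxidative lesions on DNA, and the other set was an aliquot of the untreated cultures in rich medium. Each condition was covered by 2 experiments, and each experiment by 2 arrays with the dyes exchanged, so that 4 arrays carried sub1Δ and wild type after 4NQO and 4 arrays carried sub1Δ and wild type untreated. The labels do not say how SUB1 was removed, whether sub1Δ is 1 clone or whether the experiments were separate cultures. YPH500 is known to carry a nonsense allele of ADE2, so it cannot make adenine, and the labels do not say whether sub1Δ carries it too.

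In yeast, pyrimidines are built as a free ring, orotate, to which the product of URA5, orotate phosphoribosyltransferase, attaches a ribose phosphate taken from phosphoribosyl pyrophosphate (PRPP). Purines are built on the ribose phosphate itself. ADE2 encodes phosphoribosylaminoimidazole carboxylase of that route, and its loss lets a red pigment collect in the cells, which made it a classic strain marker. AAH1 encodes adenine deaminase, which turns adenine into hypoxanthine so that adenine taken up from the medium can also supply guanine nucleotides.

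Every value is a log2 ratio of sub1Δ over wild type within 1 array, so 0 means equal signal in both strains and 1 means a doubling. A ratio carries no level, and levels of the 3 transcripts were not analysed here. In cultures, fewer cells that express a gene and less RNA per cell cannot be told apart. SUB1 had no spot with a single symbol, so the deletion was not read from the arrays, and the sign of every ratio rests on the dye labels. Between 2982 and 5950 of 6216 spots had a value on the 4NQO arrays, against 4557 to 5697 on the untreated arrays. The 2 arrays of a dye swap correlated across spots, once turned to the same direction, with r = 0.26 and 0.33 after 4NQO and 0.21 and -0.19 in untreated cells. Dye-swap means of experiments 1 and 2 correlated with r = 0.51 after 4NQO and 0.14 untreated. The dye-swapped arrays of 4NQO experiment 1 and untreated experiment 1, as deposited, correlated with r = 0.46. What they share was not tested. The number of arrays limits the precision of all values.

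URA5 was far higher in sub1Δ than in wild type on all 4 arrays after 4NQO. Experiment 1 gave log2 ratios of 3.20 and 3.45, and experiment 2 gave 3.20 and 5.48. In untreated cells the ratios were 0.53 and 1.05 in experiment 1 and -0.54 and -0.44 in experiment 2. The lowest 4NQO array stood above the highest untreated array. URA5 was chosen with its high 4NQO ratio known, and the share of all features with such a gap was not computed, so nothing is read from it. Untreated, experiment 1 lay above 0 and experiment 2 below it.

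**Figure D1:**
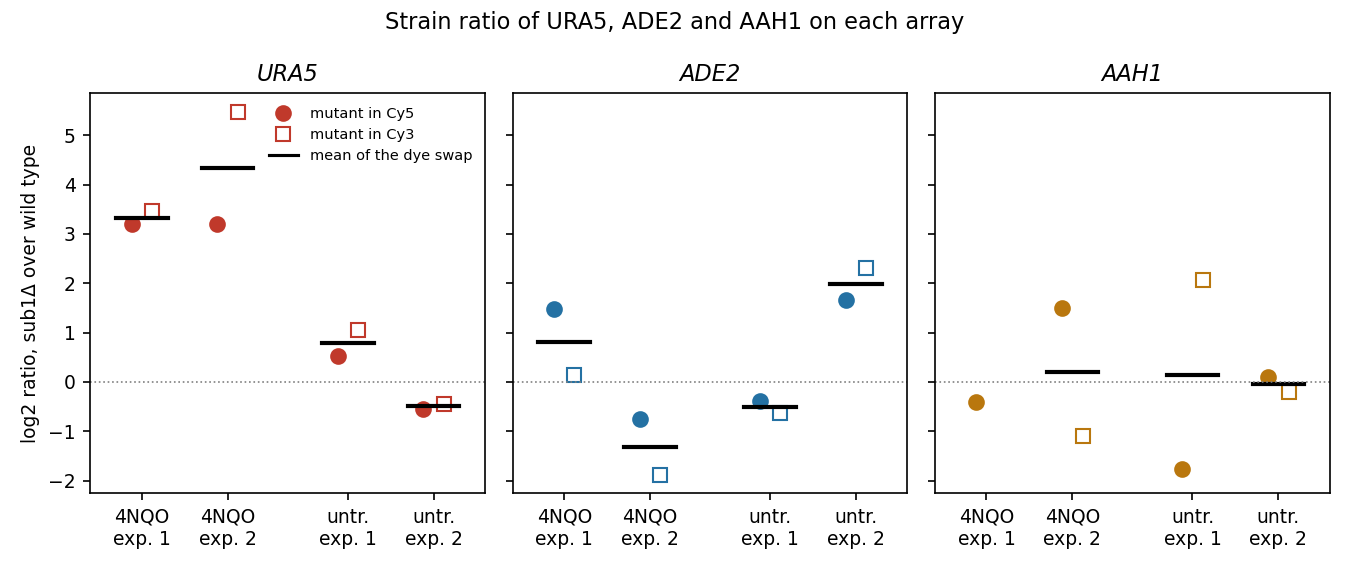
Log2 ratio of sub1Δ over wild type (y axis) for URA5, ADE2 and AAH1 on each array, with 4NQO experiments left of untreated experiments. Filled circles are arrays with the mutant in Cy5, open squares arrays with the mutant in Cy3, and black lines the mean of a dye swap where both arrays had a value. The URA5 arrays lie between 3.20 and 5.48 after 4NQO and between -0.54 and 1.05 untreated. ADE2 changes side between experiments, and AAH1 changes side between dyes.

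Averaged over each dye swap and then over experiments, URA5 was at 3.83 ± 0.72 after 4NQO, a ratio of 14.2, and at 0.15 ± 0.91 untreated, a ratio of 1.11 (SD, n = 2 experiments each). The SD after 4NQO was close to the median SD of 0.66 over the 2194 features tested in that condition. By its mean, URA5 was rank 2 of the 1242 named genes with both 4NQO dye-swap means. By its lowest 4NQO array, it was rank 1 of those 1242 genes, at 3.20, and the next gene by that measure was CYB5, which encodes cytochrome b5, at 2.36. On the 4 4NQO arrays taken singly, URA5 lay above 98.0%, 98.1%, 97.1% and 99.3% of the named genes. On the untreated arrays it lay above 75.2% and 83.5% in experiment 1 and above 19.5% and 35.1% in experiment 2.

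With experiments of the same number subtracted, the 4NQO minus untreated difference of URA5 was 2.53 in experiment 1 and 4.83 in experiment 2. The mean was 3.68 ± 1.62 (SD, n = 2). The labels do not say that experiments of the same number belong together. The mean does not depend on the numbering, but the single differences and the SD do. The conditions were sampled 1 h apart, so the addition of 4NQO and the added hour cannot be told apart. No array set treated against untreated RNA. The response of either strain alone was not measured, and a ratio of this kind does not tell whether sub1Δ held more URA5 transcript after 4NQO or wild type held less.

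Spots printed near URA5 also stood above the other named genes in both 4NQO experiments, and more so in experiment 2. The probe identifiers give 3 numbers, of which the first was taken as the print block, and the median turned ratio of the URA5 block was 0.31 and 0.12 in 4NQO experiment 1 and 1.28 and 1.17 in 4NQO experiment 2. The median of all named genes on those arrays was -0.15 and -0.41, and -0.52 and -0.61. With each block set to a median of 0, URA5 was at 3.11 after 4NQO. Its block medians lay between -0.19 and 0.01 on the untreated arrays. The part of the block in the URA5 values was not tested beyond this subtraction. The height of URA5 also rests on the dye labels, since its 4NQO mean would be -0.63 if the authors had turned the swapped arrays before deposit.

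URA10 encodes the minor orotate phosphoribosyltransferase, the paralog of URA5, and its similar sequence could bind the same labelled cDNA. Its spot had a value on only 4 of the 8 arrays. The ratios were 1.20 on 1 array of 4NQO experiment 1, -0.97 and -1.16 on the arrays of 4NQO experiment 2, and -0.53 on 1 array of untreated experiment 2. None reached the lowest 4NQO ratio of URA5, and on both arrays of 4NQO experiment 2 the paralogs lay on opposite sides of 0.

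ADE2 gave no common direction in either condition. After 4NQO it was at 1.48 and 0.14 in experiment 1, and at -0.75 and -1.89 in experiment 2. Untreated, it was at -0.38 and -0.63 in experiment 1, and at 1.66 and 2.32 in experiment 2. Within each of the 4 experiments both dyes gave the same sign, and in both conditions the experiments had opposite signs. By experiment number the order was reversed between conditions, with experiment 1 above experiment 2 after 4NQO and below it untreated. The labels do not say that experiments of the same number belong together, so the reversal rests on the numbering.

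The mean of ADE2 was -0.25 ± 1.50 after 4NQO and 0.74 ± 1.77 untreated (SD, n = 2 each), so in both conditions the spread between experiments was larger than the mean. The SD of ADE2 lay above that of 85.5% of the 2194 features tested after 4NQO and of 95.9% of the 3457 tested untreated. Opposite signs in the 2 experiments were found for 25.2% of features after 4NQO and for 45.4% untreated. Of the 1654 features with all 8 values, 210 had opposite signs in both conditions. By experiment number, 95 of them, 5.74% of the 1654, did so in reverse order, as ADE2 did. With experiments of the same number subtracted, the 4NQO minus untreated difference of ADE2 was 1.32 in experiment 1 and -3.31 in experiment 2. Both values rest on that numbering.

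**Figure D2:**
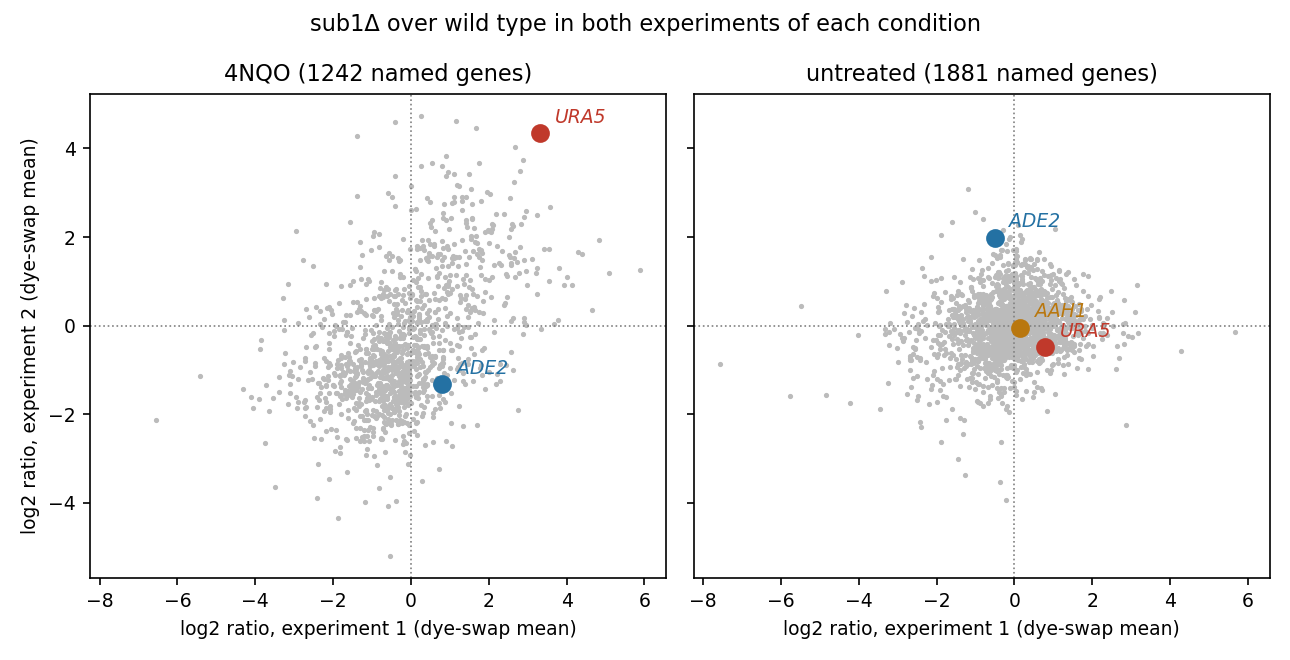
Log2 ratio of sub1Δ over wild type as dye-swap means, experiment 1 (x axis) against experiment 2 (y axis), for named genes after 4NQO (left, 1242 genes, grey points) and untreated (right, 1881 genes). URA5 lies at 3.33 and 4.34 after 4NQO, near the upper right edge, while ADE2 lies at 0.81 and -1.32 after 4NQO and at -0.51 and 1.99 untreated. AAH1 has no 4NQO point, because 1 of its arrays had no value.

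AAH1 gave opposite signs with the 2 dye orientations wherever both arrays had a value. After 4NQO, experiment 1 had a value on 1 array only, at -0.41, and experiment 2 gave 1.50 and -1.10. Untreated, experiment 1 gave -1.77 and 2.06, and experiment 2 gave 0.11 and -0.21. This was so in 3 of 3 experiments with both arrays, while URA5 and ADE2 kept their sign within 4 of 4 swaps each. The ranges over arrays, -1.10 to 1.50 after 4NQO and -1.77 to 2.06 untreated, overlapped.

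The dye-swap mean of AAH1 after 4NQO was 0.20, from experiment 2 alone, so it has no SD. Untreated it was 0.05 ± 0.14 (SD, n = 2). That SD lay above only 14.3% of the SDs of features tested, although the arrays behind it reached from -1.77 to 2.06, since a swap mean averages out opposite values of the dyes. The 4NQO minus untreated difference of AAH1, with experiments of the same number subtracted, was 0.25 in experiment 2.

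The dye swap separates a strain component, the mean of the 2 turned ratios, from a dye component, the mean of the 2 ratios as deposited (Cy3 over Cy5). For AAH1 the dye component was 1.92 in untreated experiment 1, larger than that of 96.2% of named spots, against a strain component of 0.14. In 4NQO experiment 2 the AAH1 dye component was -1.30 and the strain component 0.20. For URA5 the dye component was 0.13 and 1.14 after 4NQO, beside strain components of 3.33 and 4.34, and 0.26 and 0.05 untreated. For ADE2 it was -0.67 and -0.57 after 4NQO and -0.13 and 0.33 untreated. The dye component exceeded the strain component in size in 3 of 3 experiments for AAH1 and in 0 of 4 for URA5 and for ADE2. Among all named spots it did so for 38.0% and 27.6% in the 4NQO experiments and for 37.8% and 43.9% in the untreated ones. If the swaps had been turned before deposit, the components would trade places: the tally would be 0 of 3 for AAH1 and 4 of 4 for URA5 and for ADE2, and the shares 62.0% and 72.4% after 4NQO and 62.2% and 56.1% untreated. The same holds for the agreement or opposition of signs within a swap.

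**Figure D3:**
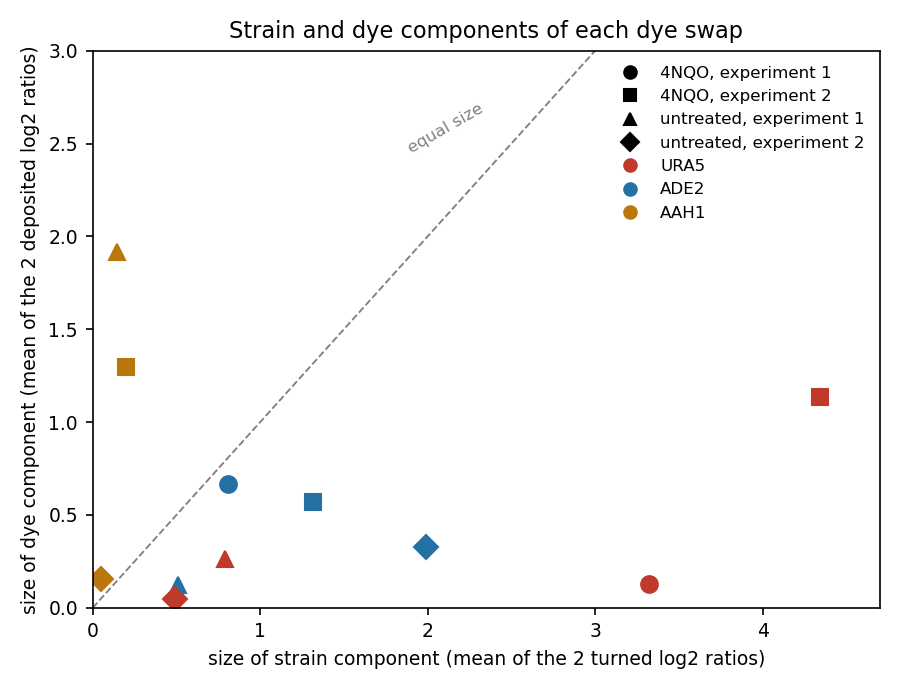
Size of the strain component (x axis, mean of the 2 turned log2 ratios) against size of the dye component (y axis, mean of the 2 deposited log2 ratios) for each dye swap of URA5, ADE2 and AAH1. Points above the dashed line have the larger dye component: the 3 AAH1 swaps lie above it, and the URA5 and ADE2 swaps below it.

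With 4NQO, URA5 had the highest mean of the 3 genes, at 3.83, and did not overlap with ADE2 or AAH1 on any array. AAH1, at 0.20 from 1 experiment, lay within the SD of ADE2, at -0.25. Untreated, the order was ADE2 at 0.74, URA5 at 0.15 and AAH1 at 0.05, and no neighbours in that order differed beyond their spread. In limma's moderated test across all features, 2 members could be tested after 4NQO and 1, URA5, was called higher, where 9.07% of 2194 features were called higher and 10.4% lower. Untreated, 0 of 3 members were called, beside 0.0289% of 3457 features (198 features had an unadjusted p under 0.05). For the 4NQO minus untreated difference, 0 of 2 were called, beside 0% of 1654 features (226 with an unadjusted p under 0.05). With arrays scaled to a common spread, 0 features were called after 4NQO, so the URA5 call was lost too. The members were selected on these values, and nothing is read from their counts.

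The genes whose turned ratios lay closest to those of URA5 over its 8 arrays, out of 946 named genes with all 8 values, were CYB5, with a root mean square difference of 0.59, GPT2, a glycerolipid acyltransferase gene, at 0.73, and ACP1, the gene of the mitochondrial acyl carrier protein, at 0.97. The median over all 946 genes was 3.30. CYB5 ratios were 2.36, 2.99, 2.82 and 5.25 after 4NQO and -0.06, 1.46, 0.51 and -0.34 untreated. CYB5, too, was highest on the array that gave URA5 its 5.48. The genes closest to ADE2 were APC11, a subunit gene of the anaphase-promoting complex, at 0.79, PGM2, a phosphoglucomutase gene, at 0.83, and ADE6, at 0.85, against a median of 1.87. For AAH1, over 7 arrays and 1074 genes, they were PAC10, a prefoldin gene, at 0.71, APL2, a clathrin adaptor gene, at 0.79, and WSC2, a cell wall sensor gene, at 0.80, against a median of 1.81. These measures of likeness use the same arrays, dyes and missing values for all genes.

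ADE6 encodes phosphoribosylformylglycinamidine synthase, which acts earlier than ADE2 in the same route. After 4NQO it was at 2.08 and 1.46 in experiment 1 and at -1.15 and -0.76 in experiment 2. Untreated, it was at 0.52 and 0.33 in experiment 1 and at 1.40 and 1.63 in experiment 2. As for ADE2, experiment 1 lay above experiment 2 after 4NQO and below it untreated, and on 6 of the 8 arrays both genes had the same sign. ADE6 was among the 3 genes closest to ADE2 on these arrays, so this likeness follows from that choice. ADE12, another purine gene, had the other order after 4NQO, at 0.26 in experiment 1 and 3.59 in experiment 2. The mean of ADE6 was 0.41 ± 1.93 after 4NQO (limma adjusted p = 0.66) and 0.97 ± 0.77 untreated (adjusted p = 0.94), so it passed in neither.

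The other genes of pyrimidine synthesis lay below URA5 in 4NQO experiment 1, and in experiment 2 most were measured on 1 array. In 4NQO experiment 1, where URA5 had a dye-swap mean of 3.33, URA2, whose product opens the pathway, was at -1.21, URA1, the dihydroorotate dehydrogenase gene, at -0.41, and URA6, the uridylate kinase gene, at -1.08. The CTP synthase genes URA7 and URA8 were at 0.80 and 0.51. On the unswapped array of 4NQO experiment 2, where URA5 was at 3.20, URA2 stood at 4.78, URA1 at 0.59, URA6 at 0.71 and URA8 at 1.17. URA2 thus exceeded URA5 on that array and lay below 0 on both arrays of experiment 1. Only URA7 had both 4NQO means, at 0.34 ± 0.64 (SD, n = 2), and it did not pass (limma adjusted p = 0.67). Untreated, 5 of the 9 other genes in the pyrimidine list were tested, with means from 0.01 for URA7 to 1.05 for URA1, and 0 passed. PPR1, the gene of a transcription activator of several URA genes, was at -4.41 and -1.58 in 4NQO experiment 1 and at -2.37 and -1.46 on 1 array each of untreated experiments 1 and 2. It stood below 0 on the 4 arrays with a value and could not be tested.

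In pyrimidine salvage and uptake, 2 of 8 genes were tested after 4NQO and both were called lower in sub1Δ, beside 10.4% of all features, with a median of -1.89 against -0.56 over all features. Neither call was stable to the processing. FUR4, which encodes the uracil permease, was at -3.19 and -2.87 in experiment 1 and at -1.19 and -0.44 in experiment 2, with a mean of -1.92 ± 1.57 (SD, n = 2; limma adjusted p = 0.038). CDD1, the cytidine deaminase gene, was at -1.09 and -1.74, and at -3.16 and -1.45, with a mean of -1.86 ± 0.62 (adjusted p = 0.035). Both genes were below 0 on all 4 4NQO arrays. The CDD1 call was lost under 9 of 9 other settings (limma adjusted p = 0.095 to 0.80). The FUR4 call was lost under every other setting with both 4NQO experiments (adjusted p = 0.059 to 0.77), with array medians set to 0 among them. For both genes, leaving out either untreated experiment and fitting 4NQO alone gave the same p, so these settings are 1 fit. FUR4 was at -0.81 without 4NQO experiment 1 and at -3.03 without 4NQO experiment 2. Untreated, FUR4 was at -1.60 ± 0.57 and did not pass (adjusted p = 0.63), URK1, the uridine kinase gene, was at -0.06 and FUI1, the uridine permease gene, at -0.10.

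In purine salvage, the pathway of AAH1, 3 genes were tested after 4NQO and 0 passed. APT1, which encodes adenine phosphoribosyltransferase and so competes with AAH1 for adenine, was above 0 on all 4 4NQO arrays, at 1.59, 0.71, 2.67 and 0.41, with a mean of 1.35 ± 0.27 (SD, n = 2; limma adjusted p = 0.10). ADO1, the adenosine kinase gene, was at -0.04, and MEU1, a methylthioadenosine phosphorylase gene, at 0.17, with experiments at 1.58 and -1.25. Untreated, 6 genes were tested and 0 passed, with means between -0.26 for ADO1 and 0.52 for MEU1. ADE12, the adenylosuccinate synthase gene on the branch to AMP, was at 0.26 in 4NQO experiment 1 and at 3.59 in 4NQO experiment 2, and its mean of 1.93 ± 2.36 missed the threshold (adjusted p = 0.055). It passed with print blocks set to a median of 0 (2.48, limma adjusted p = 0.0049). Without 4NQO experiment 1 it was at 3.59, which is experiment 2 alone.

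**Figure D4:**
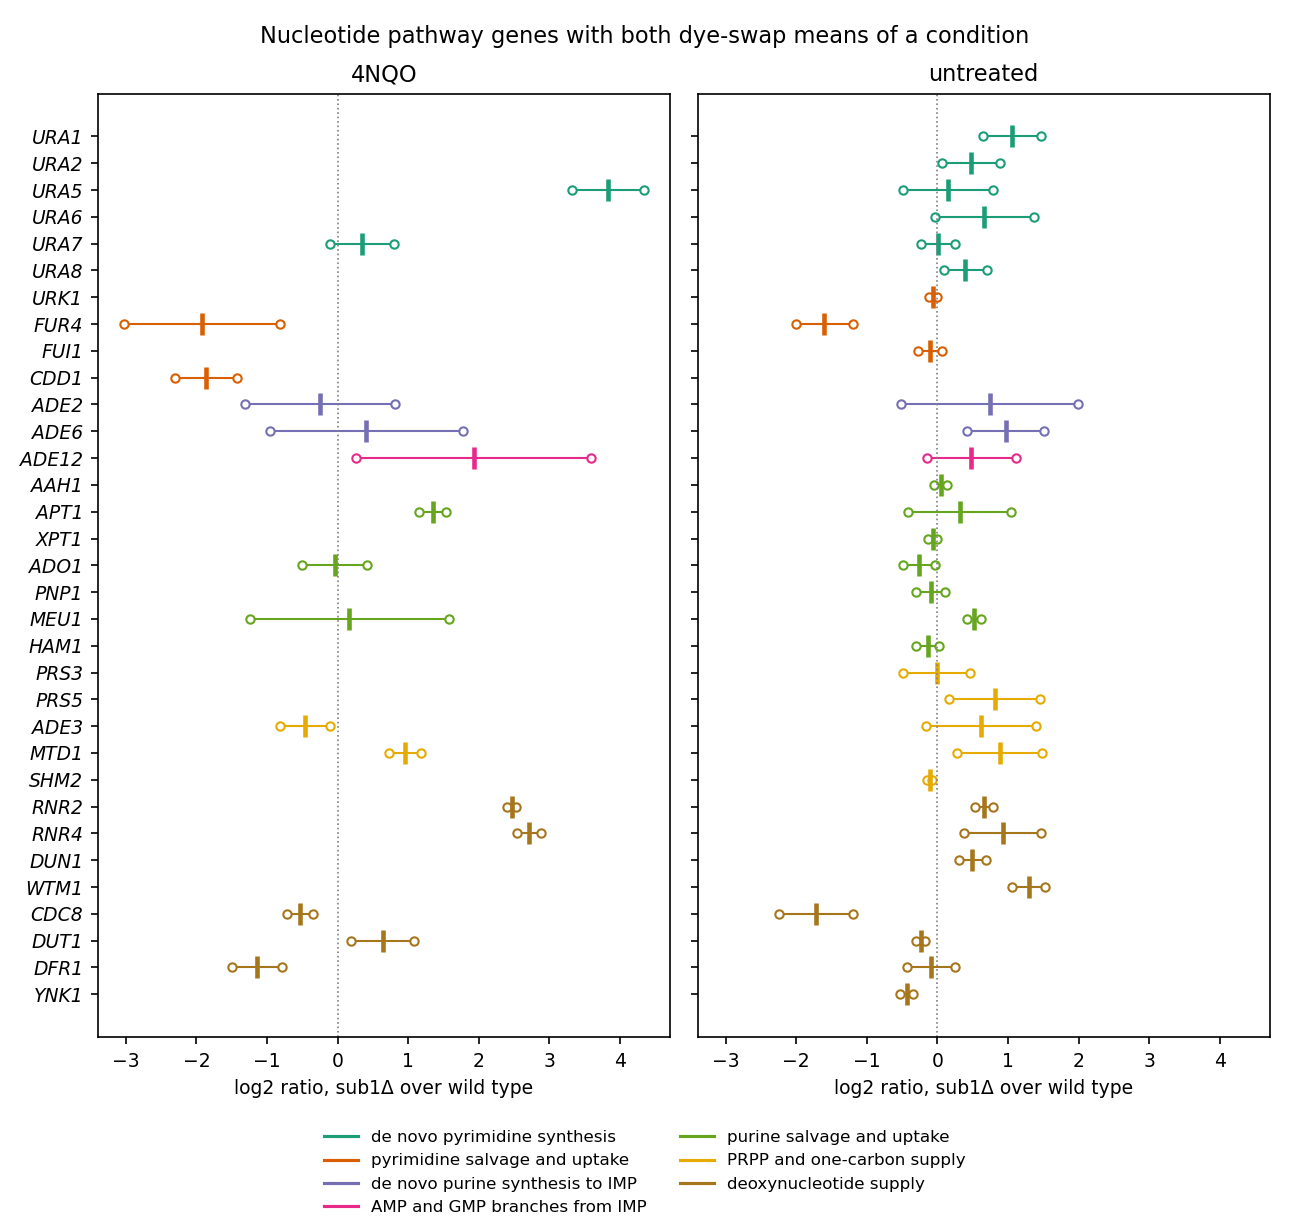
Log2 ratio of sub1Δ over wild type for nucleotide pathway genes with both dye-swap means of a condition, after 4NQO (left) and untreated (right). Open circles are the 2 experiments, thick vertical bars their mean, and colours the pathway lists. After 4NQO, URA5 at 3.83 lies to the right of every other gene shown, followed by RNR4 at 2.71 and RNR2 at 2.46, and FUR4 and CDD1 lie lowest, at -1.92 and -1.86.

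PRPP and one-carbon genes gave 2 tested genes after 4NQO, of which 0 passed: MTD1, a cytoplasmic folate dehydrogenase gene, at 0.96 ± 0.32 and ADE3, the trifunctional one-carbon enzyme gene, at -0.46 ± 0.50 (SD, n = 2). MTD1 passed with print blocks set to a median of 0 (1.74, limma adjusted p = 0.028). Its arrays were at 0.88 and 0.59 in 4NQO experiment 1, but had opposite signs in experiment 2, at -1.49 and 3.85. Among genes that supply deoxynucleotides, 2 of 5 tested were higher after 4NQO, beside 9.07% of all features. They were RNR4 at 2.71 ± 0.23 and RNR2 at 2.46 ± 0.09, which encode the small subunit of ribonucleotide reductase (limma adjusted p = 0.0078 and 0.010). The arrays of a swap lay further apart than these SDs. RNR4 was at 0.31 and 4.78 in 4NQO experiment 1 and at 2.39 and 3.35 in experiment 2, and RNR2 at 1.09 and 3.71, and at 1.59 and 3.47. Scaling the arrays to 1 spread ended both calls (adjusted p = 0.21 each), and both means turned below 0 with swaps taken as already turned. DFR1, the dihydrofolate reductase gene, at -1.14 ± 0.51, was the lowest and did not pass. Untreated, 8 genes were tested and 0 passed, from WTM1, which helps to hold the small subunit in the nucleus, at 1.30 ± 0.33 to CDC8, the thymidylate kinase gene, at -1.72 ± 0.75.

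Over all nucleotide lists and regulators, 39 of the 75 genes other than the members had a value. After 4NQO 15 of them were tested, 2 were higher, 2 lower and 11 did not pass, where 9.07% of all 2194 features were called higher and 10.4% lower. An unadjusted p under 0.05 was found for 6 of the 15, where 37.5% of all features had one. The median of the 15 was 0.34, against -0.56 over all features. Untreated 29 were tested and 0 passed (3 with an unadjusted p under 0.05), with a median of 0.32, against 0.02 over all 3457 features. For the difference between conditions 14 were tested and 0 passed (2 with an unadjusted p under 0.05). The lists were drawn up with earlier results of these arrays known, and features were tested only where the arrays gave both means, so the counts describe the measured part of each list.

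Of the other auxotrophic marker genes of YPH500, LYS2, a lysine synthesis gene, was the only one with a single-symbol spot. It was at -1.48 ± 1.06 after 4NQO (limma adjusted p = 0.082) and at -0.75 ± 0.88 untreated (adjusted p = 0.94; SD, n = 2 each). Unlike ADE2, both LYS2 experiments lay below 0 in both conditions, at -2.23 and -0.73 after 4NQO and at -1.37 and -0.13 untreated.

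Spotted open reading frames do not tell strands apart, so the neighbours of each member in the RefSeq gene table (assembly R64) were read as well. None of the 6 neighbours overlapped a member in that table. SEC65, next to URA5 and encoding a signal recognition particle subunit, was at 0.95 and 0.37 in 4NQO experiment 1 and at 1.65 on 1 array of 4NQO experiment 2, below URA5 on each. Beside ADE2, AFI1 was at 0.40 and -3.02 in 4NQO experiment 1 and at -1.93 and -3.28 in experiment 2. Its mean of -1.96 ± 0.92 (SD, n = 2) was called lower (limma adjusted p = 0.031). The call was lost under 9 of 9 other settings (adjusted p = 0.084 to 0.32), with a mean of 1.19 if swaps were taken as already turned. Among the 9, leaving out either untreated experiment and fitting 4NQO alone are the same fit. MEP2, an ammonium permease gene beside AAH1, was at -0.08 ± 0.31 after 4NQO and at -0.93 ± 0.15 untreated and passed in neither. The untreated arrays of MEP2 had opposite signs within each swap, at -2.19 and 0.12, and at 0.74 and -2.39.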

How the data were processed

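The authors deposited, for each of 8 arrays, a log2 ratio of Cy3 over Cy5 per spot. Per the labels and the series' design text, scans were background-subtracted and normalised by LOWESS (smooth parameter 0.33), and the submitters' processing notes name limma 2.12.0. The sources used here do not say if the swaps had been turned already or why spots lack values. For sub1Δ over wild type, ratios were multiplied by -1 where sub1Δ was in Cy5. Gene names came from single-symbol spots, 3344 of 6216, updated by gene identifier through RefSeq (3343 matched). Spots of 1 gene were averaged, giving 5999 features. The 2 arrays of a dye swap were averaged where both had a value, so n = 2 experiments per condition. A limma fit (3.58.1, R 4.3.3, prior degrees of freedom 16.8) on the 4 dye-swap means gave a ratio per condition and their difference, with 2-sided p-values adjusted by Benjamini-Hochberg over all features and a threshold of 0.05. It was tested on simulated data. P-values rest on the spread between experiments, pooled over both conditions and drawn strongly toward the average over features. The standard error was thus 0.55 for RNR2 and 0.69 for ADE12, whose SDs after 4NQO were 0.09 and 2.36. A p-value is therefore not a measure of a gene's own spread, and the spread may be technical.

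Members and lists were chosen with earlier results of these data known. Genes were named by rule: the members, URA10, list genes that passed or were highest or lowest in their list, the 3 genes closest to each member by root mean square difference, neighbours and marker genes. URA2, URA6, URA8, PPR1, FUI1, DUT1 and PRS5 were added after their values were seen. Alternatives were other centrings and scalings, unturned swaps, incomplete swaps and left-out experiments.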

Additional observations from a re-analysis of the deposited data

Results flagged for a closer look

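Among 49 sets of 4 arrays (1 gene in 1 condition), 6 held an array far from the other 3 by Dixon's criterion. For independent values from 1 normal distribution, chance gives about 1 in 20. The 4 arrays are 2 swaps of 2 experiments, and all genes share the same arrays, so this rate need not hold here. URA5 after 4NQO was 1 of the 6, with 5.48 on the dye-swapped array of experiment 2, against 3.20, 3.45 and 3.20 on the others. That array had the fewest values, 2982 of 6216 spots. The others were MEU1 after 4NQO at -3.81 on the same array, DUT1 (dUTPase) after 4NQO at -0.50 on the dye-swapped array of experiment 1, and, untreated, MEU1 at 0.16 and URA6 at 2.83 on the dye-swapped array of experiment 2 and PRS5 (PRPP synthetase) at 2.44 on that of experiment 1. All 6 lay on dye-swapped arrays. The part of the dye in these values was not tested.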

How the results depend on the processing

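Of 30 member values under another setting, 25 moved by less than the SD between experiments (for AAH1 after 4NQO, between its 2 arrays). Some of the 25 could not move: letting 1 array of a swap stand alone leaves URA5, ADE2 and untreated AAH1, with complete swaps, as they were. Others could not move by more than the SD, since leaving out 1 of 2 experiments always moves a mean by less. The count of 25 is therefore not a measure of stability. URA5 after 4NQO was at 3.11 with print blocks centred, 3.11 with arrays scaled to a common spread and -0.63 with swaps taken as already turned, and AAH1 untreated was at 0.21 with blocks centred and -0.88 with swaps taken as already turned. Leaving out an experiment gave 3.33 to 4.34 for URA5, and -1.32 to 0.81 for ADE2, after 4NQO, and -0.49 to 0.79 for URA5, -0.51 to 1.99 for ADE2 and -0.05 to 0.14 for AAH1 untreated. ADE2 after 4NQO was at 0.20 with array medians centred, 0.17 with blocks centred and 0.62 with swaps taken as already turned. ADE2 untreated was at 1.27 with arrays scaled and -0.10 with swaps taken as already turned. AAH1 after 4NQO was at 0.80 with medians centred, 0.92 with blocks centred, 1.30 with swaps taken as already turned and -0.10 with 1 array of a swap standing alone, so its SD of 1.83 between arrays covers moves larger than the value. The cause of these changes was not tested.

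All features called after 4NQO numbered 428, against 212 with array medians centred (195 higher; 199 of 428 without), 94 with 4NQO fitted alone and 0 with arrays scaled, with swaps taken as already turned, with 1 array of a swap standing alone, without the sparsest array or on features with all 8 values. Without 1 experiment the count was 94 to 338, with 94 without untreated experiment 1 or 2 and 285 without 4NQO experiment 1. With print blocks centred 284 of 408 were higher. Pathway genes called after 4NQO numbered 4, 2 with medians centred, 4NQO fitted alone or an untreated experiment left out, and 0 under the 5 settings that gave 0 above. Untreated, 1 feature was called, 3 with blocks centred, and 42 fitted alone or without a 4NQO experiment. The untreated count was 0 with medians centred, arrays scaled, incomplete swaps, without the sparsest array or on complete features. The difference called 0, 2 with blocks centred and 0 to 53 without 1 experiment (40 and 53 without 4NQO experiments 1 and 2). RNR2, RNR4 and AFI1 turned to -1.13, -1.36 and 1.19 with swaps taken as already turned. With both 4NQO experiments in the fit, RNR2 and RNR4 kept their calls with medians centred, blocks centred and 4NQO fitted alone. Leaving out an untreated experiment repeats the last of these fits. Both calls were lost with arrays scaled, incomplete swaps, without the sparsest array and on features with all 8 values. Each member had 1 spot, so single spots gave no other value. The experiment number as a replicate block left 0 differences called, and same-numbered experiments shared deviations with r = 0.10, and with 2 pairs this does not settle pairing.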
